A study of Mus musculus with 6 samples.

Results

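Fibroblast growth factor (FGF) signalling was examined through 10 genes in MC3T3-E1, a pre-osteoblast cell line from mouse calvaria, with and without knockdown of the histone deacetylase gene Hdac4. The 10 genes were fixed by name and comprised the ligand genes Fgf2, Fgf7 and Fgf18, the receptor genes Fgfr1, Fgfr2, Fgfr3 and Fgfr4, and the Sprouty feedback inhibitor genes Spry1, Spry2 and Spry4, out of 53801 Ensembl genes counted. Poly-A RNA was sequenced in 3 Control libraries, from cells carrying a lentivirus for scrambled non-silencing RNA, and in 3 Hdac4-knockdown libraries, from cells carrying an Hdac4-shRNA lentivirus. Both groups were selected with 5 µg/mL puromycin for 7 days. The labels list 3 hairpins against Hdac4 without saying which was sequenced, and the study's account names Hdac4-shRNA3, so the knockdown stands for a single hairpin. The labels describe independent RNA samples but not separate infections, so the p-values measure only the spread between these samples.

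FGF ligands are secreted proteins that bind heparan sulfate and activate receptor tyrosine kinases at the cell surface. The activated receptors signal mainly through the RAS-ERK cascade, which induces the Sprouty genes, and Sprouty proteins in turn restrain that cascade. In the skull, FGF signalling governs the balance between growth and differentiation of osteoblast precursors, and activating changes in the FGF receptors are known causes of premature suture fusion.

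Of the 10 genes, 8 had enough counts to be tested and 2, Fgf18 and Fgfr4, did not. The ligand genes Fgf2 and Fgf7 and the receptor genes Fgfr1, Fgfr2 and Fgfr3 rose in the Hdac4-knockdown libraries, while Spry1, Spry2 and Spry4 fell. The log2 fold changes ran from -1.36 for Spry2 to 5.71 for Fgfr2. In the same fit, 75.1% of the 14531 genes tested were called changed (38.0% higher and 37.1% lower, adjusted p below 0.05 and log2 fold change beyond 0.05 in size), so that calling all 8 is by itself no result about FGF genes. All 8 also changed by more than 0.5 on the log2 scale (44.4% of all genes tested, 24.6% higher and 19.8% lower). Beyond 1 on that scale lay Fgf2, Fgf7, Fgfr2, Fgfr3 and Spry2, which are 5 of the 8 (27.1% of all genes tested, 16.5% higher and 10.6% lower). Fgfr2 is among the 8 only through its counts in the Hdac4-knockdown libraries, which fixed its direction. The CPM values of the groups did not overlap for any of the 8, as for 76.8% of all genes tested. CPM are gene counts scaled to a common library size, with library composition taken into account. Levels are therefore given library by library and with the size of each change.

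Reads counted on genes numbered 29096544 to 31651826 per library. Hdac4, the targeted gene, had 1136 to 1243 counts in the Control libraries and 887 to 950 in the Hdac4-knockdown libraries, a log2 fold change of -0.44 (SE 0.0570, edgeR adjusted p = 8.98e-07). Its counts are uncertain, since 3536 of its 15813 exon bases are shared with Gm26720, which had no count. The labelled cell type was compared with marker lists, beside 38.0% of all genes tested called higher and 37.1% called lower. Of 12 osteoblast markers 9 were tested, 6 were higher, 2 lower and 1 not called. The 6 include Sp7 and Dlx5, which passed the filter on low counts only through the Hdac4-knockdown libraries, which fixed their direction. The summed counts of the 12 were 137084 to 146575 in Control and 647593 to 719354 in Hdac4-knockdown libraries. The collagen genes carried the rise of this sum, with Col1a1 at 338 ± 14.4 and 11015 ± 326 CPM and Col1a2 at 1213 ± 22.5 and 8572 ± 163 CPM (SD, n = 3). Spp1, which made up most of the Control sum, fell from 3154 ± 30.9 to 2046 ± 36.1 CPM (SD, n = 3), Msx2 also fell, and Runx2 was called higher with overlapping groups (69.9 ± 4.64 and 79.5 ± 5.67 CPM, SD, n = 3). Alpl, which encodes the alkaline phosphatase of mineralizing cells, had 3 counts or fewer in every library, and Ibsp had none in the Control libraries. All 5 skeletal muscle markers were lower in the Hdac4-knockdown libraries, with summed counts of 24757 to 26522 in Control and 3540 to 4184 in Hdac4-knockdown libraries, and the myogenic factor gene Myod1 was at 67.9 ± 3.62 and 8.96 ± 0.835 CPM (SD, n = 3). The 4 nervous system markers tested were also lower (18159 to 19287 against 2615 to 2978 summed counts over the 6 listed, Sox10 without a count). The neurofilament genes stood out among them, with Nefl at 7175 to 7696 counts in Control and 2, 1 and 0 in Hdac4-knockdown libraries, and Nefm at 5208 to 5471 against 14, 3 and 16. Both passed the filter on low counts only through the Control libraries, which fixed their direction. The endothelial list summed to 8 to 12 and 87 to 95 counts, with Emcn at 0, the blood cell list to 40 to 76 and 59 to 78, with Adgre1 and Cd3e at 0, the epithelial list to 169 to 209 and 236 to 292, and the fat cell list to 826 to 887 and 99 to 136, nearly all from Pparg. The summed counts of every list but that of blood cells thus differed between the groups without overlap, as the tested FGF genes did. The endothelial and epithelial sums were small. The part of these lists in the FGF results was not tested. A difference in cell identity between the groups and an effect of the hairpin cannot be told apart in this design, so each fold change below compares the libraries labelled Control and Hdac4-knockdown. In bulk RNA, fewer cells of a type and less RNA per cell cannot be told apart.

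The promoters of the FGF genes differed in base composition. RefSeq windows of 250 bases before an annotated start (GRCm38.p6) were examined for 8 of the 10 genes, 9 windows in all. No window was examined for Fgfr1 or Spry4, which for Spry4 does not mean that RefSeq lacks one. Over 32851 windows the median share of G and C was 52.4% (quartiles 45.2% and 61.2%) and the median CpG count 6 (quartiles 2 and 16). The Fgf7 window held 43.6% G and C, below the first quartile, and 6 CpG dinucleotides. Windows of Fgf2, Fgf18, Fgfr3, Fgfr4, Spry1 and Spry2 held 62.4% to 77.2% G and C and 15 to 37 CpG dinucleotides. The Fgfr2 window had 44.0% and 2 CpG dinucleotides, but its RefSeq start lies 545 bases from the nearest GENCODE start, so it may miss the promoter in use. The same limit holds for the Fgfr4 window, where this distance is 178 bases. For the other 7 of the 9 windows the RefSeq start is also a GENCODE start. The windows of Fgf7, the ligand gene with the larger rise, and of Spry2 and Spry1, the Sprouty genes with the larger falls, are shown with each CpG dinucleotide in capitals, on the coding strand from 5′ to 3′. They lie at chr2:126034408-126034657 on the plus strand, chr14:105896820-105897069 on the minus strand and chr3:37639697-37639946 on the plus strand.
Fgf7: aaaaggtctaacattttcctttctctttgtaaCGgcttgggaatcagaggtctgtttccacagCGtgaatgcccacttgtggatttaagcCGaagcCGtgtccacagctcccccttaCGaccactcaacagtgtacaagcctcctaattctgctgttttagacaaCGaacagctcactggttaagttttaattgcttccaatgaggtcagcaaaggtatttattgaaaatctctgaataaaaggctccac
Spry2: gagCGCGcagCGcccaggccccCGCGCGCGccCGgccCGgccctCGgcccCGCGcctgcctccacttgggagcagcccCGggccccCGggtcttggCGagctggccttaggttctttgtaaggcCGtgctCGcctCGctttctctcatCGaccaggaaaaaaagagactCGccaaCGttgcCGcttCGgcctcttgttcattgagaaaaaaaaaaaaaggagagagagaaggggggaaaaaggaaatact
Spry1: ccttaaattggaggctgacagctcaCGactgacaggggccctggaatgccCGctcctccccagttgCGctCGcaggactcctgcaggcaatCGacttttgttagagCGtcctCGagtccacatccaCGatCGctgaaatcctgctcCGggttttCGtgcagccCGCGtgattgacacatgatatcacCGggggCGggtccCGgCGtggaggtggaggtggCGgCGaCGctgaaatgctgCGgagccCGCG

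Of the motifs searched on both strands of the 9 windows, the GC box GGGCGG was in 6 (32.7% of all windows hold it) and the E-box CAGCTG in 1, a window of Fgfr3 (13.0% of all). The RUNX motif TGTGGT (14% of all), the AP-1 motif TGANTCA (6.75%), the ETS motif CCGGAAG (6.91%), the TATA motif TATAAA (12.4%) and the MEF2 consensus (0.508%) were in none of the 9. These matches describe letters only. In the windows printed above, only Spry1 held a GC box.

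Among the ligands, Fgf7 rose most. Fgf7 (ENSMUSG00000027208; chromosome 2, 126034658 to 126091185, plus strand, GRCm38) encodes keratinocyte growth factor, a mesenchymal ligand for a splice form of Fgfr2 typical of epithelia. It was counted 406, 393 and 401 times in the Control libraries and 3548, 3261 and 3555 times in the Hdac4-knockdown libraries. Every Hdac4-knockdown library was far above every Control library. The level went from 13.5 ± 0.503 to 111 ± 8.94 CPM (SD, n = 3), 8.25 times that in Control (log2 fold change 3.04, SE 0.0664, edgeR adjusted p = 8.42e-19). A larger change in either direction was seen for 6.44% of the genes tested.

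Fgf2 (ENSMUSG00000037225; chromosome 3, 37348346 to 37410108, plus strand) encodes basic FGF, a mitogen for osteoblast precursors. Its counts were 272, 228 and 224 in the Control libraries and 725, 612 and 645 in the Hdac4-knockdown libraries. The groups did not overlap, and Fgf2 rose from 8.13 ± 0.682 to 21.3 ± 2.22 CPM (SD, n = 3), a log2 fold change of 1.39 (SE 0.0962, edgeR adjusted p = 9.10e-11). Fgf2 shares 895 of its 6782 exon bases with other genes, 640 of them with Nudt6 on the opposite strand. Nudt6 had 62 to 82 counts in Control and 42 to 84 in Hdac4-knockdown libraries and was not called (log2 fold change -0.24, SE 0.226, edgeR adjusted p = 0.347).

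Fgf18 (ENSMUSG00000057967; chromosome 11, 33117430 to 33147400, minus strand), a ligand that promotes bone and cartilage growth, was barely counted. It had 2, 0 and 1 counts in the Control libraries and 1, 2 and 0 in the Hdac4-knockdown libraries. A count of 0 allows a level of up to 0.10 CPM in Control replicate 2 and 0.0997 CPM in Hdac4-knockdown replicate 3, for counting error only. No difference was detectable at this depth.

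Together the 3 ligand genes made 5.38 ± 0.189 CPM per kb of exon in Control and 37.4 ± 2.99 in Hdac4-knockdown libraries (SD, n = 3). The make-up of this sum also differed. Fgf7 held 74.9%, 78.3% and 78.5% of it in the Control libraries and 91.0%, 91.6% and 92.0% in the Hdac4-knockdown libraries. The share of Fgf2 was 21% to 24.0% in Control and 7.99% to 8.91% in Hdac4-knockdown libraries, although its own level rose. For each of the 2 genes, the shares of the groups did not overlap (p = 0.1 by an exact permutation test, two-sided, which can go no lower with 3 libraries against 3).

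**Figure D1:**
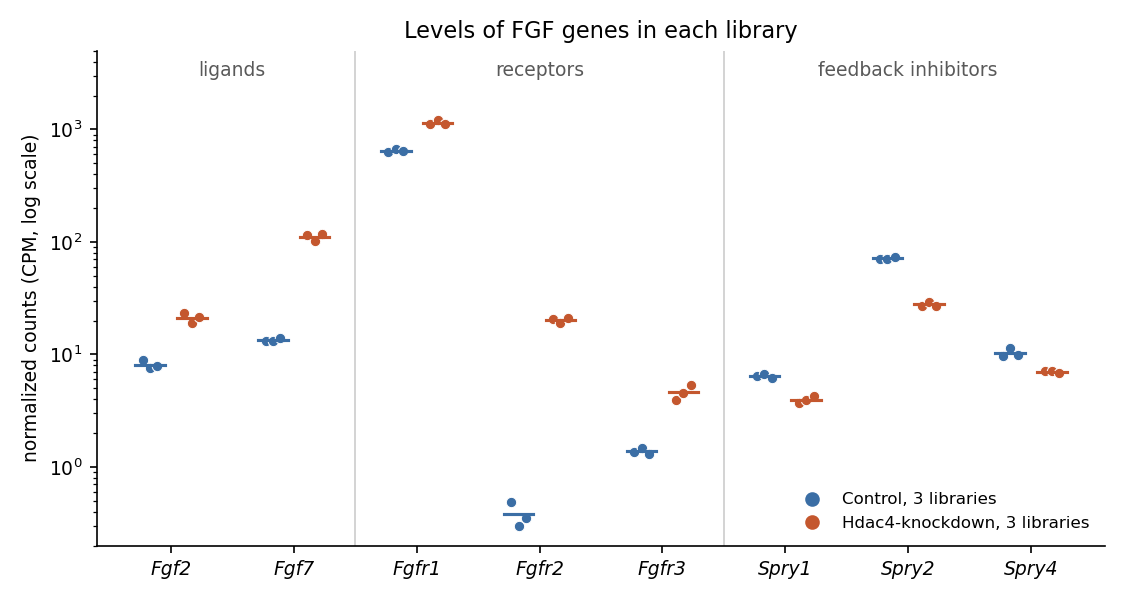
Normalized counts (CPM, log axis) of the 8 FGF genes tested, in 3 Control (blue) and 3 Hdac4-knockdown (orange) libraries; each point is a library and each bar the mean of a group. Ligand and receptor genes are higher in every Hdac4-knockdown library, with Fgfr2 going from 0.381 to 20.2 CPM on average, and the 3 Sprouty genes are lower.

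Among the receptors, Fgfr1 was by far the most abundant in both groups, and Fgfr2 changed most. Fgfr1 (ENSMUSG00000031565; chromosome 8, 25513654 to 25575718, plus strand) encodes the main FGF receptor of mesenchymal cells. It was counted 19365, 19952 and 18320 times in the Control libraries and 34624, 38661 and 33930 times in the Hdac4-knockdown libraries. All 3 Hdac4-knockdown libraries lay above the Control libraries, at 1149 ± 44.4 against 648 ± 17 CPM (SD, n = 3). The log2 fold change was 0.83 (SE 0.0390, edgeR adjusted p = 1.96e-13), a size exceeded by 32% of the genes tested. Of its 9875 exon bases, 164 are shared with the antisense gene Gm16159, which had 28 counts or fewer in every library.

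Fgfr2 (ENSMUSG00000030849; chromosome 7, 130162451 to 133123350, minus strand) encodes a receptor found in osteoblast precursors in one splice form and in epithelia in another. It was almost silent in the Control libraries, with 15, 9 and 10 counts, and had 644, 611 and 628 counts in the Hdac4-knockdown libraries. The level went from 0.381 ± 0.0986 to 20.2 ± 1.09 CPM (SD, n = 3), 53.1 times that in Control (log2 fold change 5.71, SE 0.157). Fgfr2 passed the filter on low counts only through the Hdac4-knockdown libraries. That fixed its direction, so its fold change is given as a description with no test. A share of 1.00% of the genes tested had a change of larger size. Fgfr2 shares 314 of its 10328 exon bases with Ctbp2 on the same strand. Ctbp2 fell, with 1472 to 1490 counts in Control and 1084 to 1212 in Hdac4-knockdown libraries (log2 fold change -0.44, edgeR adjusted p = 5.41e-07). The counts do not separate the splice forms of a receptor, which were not analysed here.

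Fgfr3 (ENSMUSG00000054252; chromosome 5, 33721674 to 33737068, plus strand) encodes a receptor best known as a brake on cartilage growth. It had 42, 44 and 37 counts in the Control libraries and 123, 146 and 160 in the Hdac4-knockdown libraries. The groups did not overlap, and Fgfr3 rose from 1.38 ± 0.0861 to 4.61 ± 0.673 CPM (SD, n = 3), a log2 fold change of 1.73 (SE 0.185, edgeR adjusted p = 6.23e-08). It shares 998 of its 7158 exon bases with G630022F23Rik on the opposite strand, which had no count in any library.

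Fgfr4 (ENSMUSG00000005320; chromosome 13, 55152640 to 55168759, plus strand), a receptor of liver and of muscle precursors, was at the limit of detection. Its counts were 0, 0 and 1 in the Control libraries and 1, 2 and 3 in the Hdac4-knockdown libraries, which is too few to call a difference. Without a filter on low counts it was still not called (edgeR adjusted p = 0.345), and neither was Fgf18 (edgeR adjusted p = 0.977).

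Summed over the 4 receptors, the level was 65.8 ± 1.72 CPM per kb in Control and 119 ± 4.39 CPM per kb in Hdac4-knockdown libraries (SD, n = 3). Fgfr1 held 99.6% to 99.7% of this sum in the Control libraries and 97.6% to 98.0% in the Hdac4-knockdown libraries. The share of Fgfr2 was 0.0738%, 0.0430% and 0.0520% in Control and 1.74%, 1.48% and 1.73% in Hdac4-knockdown libraries. In the Control libraries Fgfr3, at 0.278% to 0.303%, held more of the sum than Fgfr2. In the Hdac4-knockdown libraries that order was turned, with Fgfr3 at 0.479% to 0.635%. The shares of Fgfr3 did not overlap between the groups (p = 0.1 by the same exact permutation test). The share of Fgfr2 is a description with no test, since the filter on low counts fixed its direction. That of Fgfr1 is likewise only described, since its change of -1.85 percentage points largely mirrors the 1.59 of Fgfr2.

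**Figure D2:**
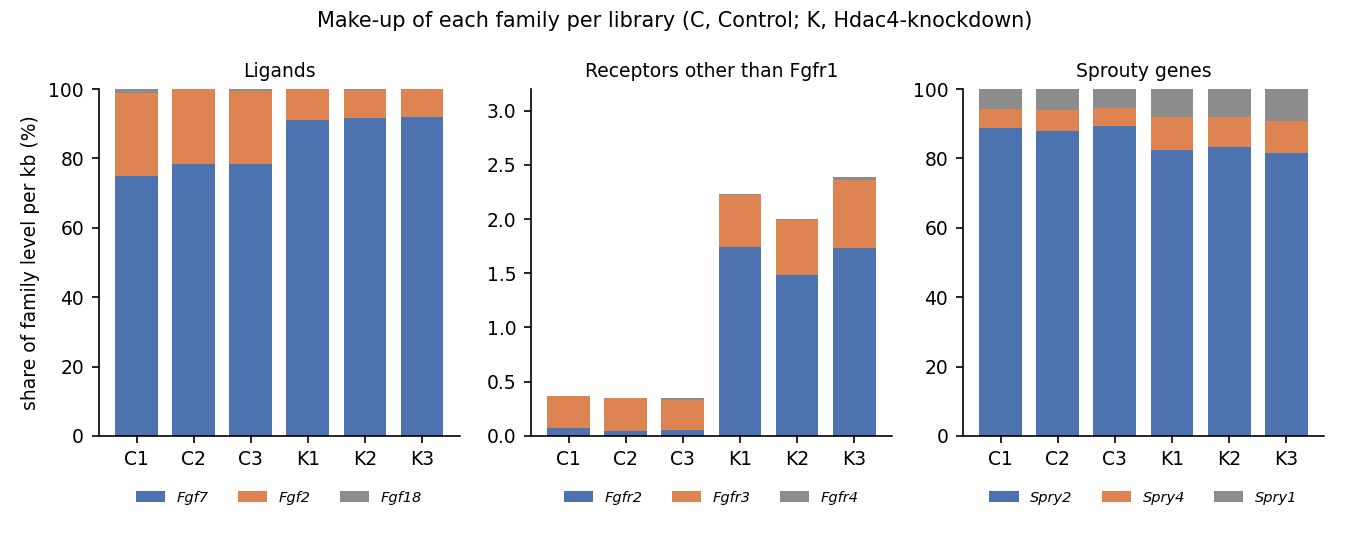
Shares of each family's summed level per kb of exon in every library (y axis, percent), for the ligand genes, for the receptor genes other than Fgfr1 and for the Sprouty genes; the axis of the receptor panel is short because Fgfr1 holds the rest. Fgf7 and Fgfr2 take larger shares in the Hdac4-knockdown libraries (K) than in the Control libraries (C), and Spry2 takes a smaller share.

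The Sprouty genes moved the other way. Spry2 (ENSMUSG00000022114; chromosome 14, 105891947 to 105896819, minus strand), which like the other Sprouty genes encodes an inhibitor of receptor tyrosine kinase signalling to ERK, was counted 2169, 2129 and 2083 times in the Control libraries and 842, 952 and 809 times in the Hdac4-knockdown libraries. No library of a group came near the other group. Spry2 fell from 71.7 ± 1.17 to 27.9 ± 1.45 CPM (SD, n = 3), 38.9% of that in Control (log2 fold change -1.36, SE 0.0548, edgeR adjusted p = 1.46e-14).

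Spry1 (ENSMUSG00000037211; chromosome 3, 37639947 to 37644598, plus strand) had 196, 201 and 178 counts in the Control libraries and 115, 128 and 128 in the Hdac4-knockdown libraries. Its level fell from 6.46 ± 0.238 to 3.98 ± 0.268 CPM (SD, n = 3), a log2 fold change of -0.70 (SE 0.126, edgeR adjusted p = 5.61e-05). Spry1 shares 710 of its 2906 exon bases with Gm42922 on the opposite strand, which had 7 counts or fewer in every library.

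Spry4 (ENSMUSG00000024427) was counted 294, 340 and 283 times in the Control libraries and 220, 230 and 207 times in the Hdac4-knockdown libraries. The groups did not overlap here either, and Spry4 fell from 10.3 ± 0.927 to 7.04 ± 0.143 CPM (SD, n = 3), a log2 fold change of -0.55 (SE 0.104, edgeR adjusted p = 9.11e-05). This was the smallest change among the 8 FGF genes tested, and 44.1% of all genes tested had a larger one.

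The summed level of the 3 Sprouty genes was 38.8 ± 0.506 CPM per kb in Control and 16.2 ± 0.706 CPM per kb in Hdac4-knockdown libraries (SD, n = 3). Spry2 held 87.9% to 89.2% of it in Control and 81.6% to 83.2% in Hdac4-knockdown libraries. The shares of Spry1 (5.47% to 5.96% against 8.03% to 9.27%) and of Spry4 (5.29% to 6.16% against 8.82% to 9.46%) were larger in the Hdac4-knockdown libraries, while both genes fell in level. None of these shares overlapped between the groups (p = 0.1 for each by the same exact permutation test).

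**Figure D3:**
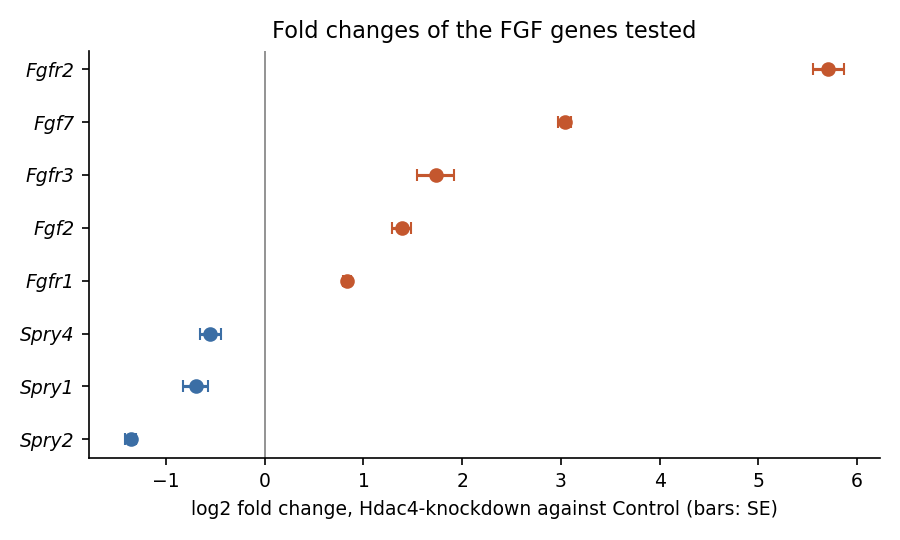
Log2 fold changes of the 8 FGF genes tested (points, with SE as bars), Hdac4-knockdown against Control. The 5 ligand and receptor genes lie above 0, from 0.83 for Fgfr1 to 5.71 for Fgfr2, and the 3 Sprouty genes lie below 0, from -1.36 to -0.55.

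Per kb of exon, the order of levels in the Control libraries was Fgfr1 (65.6 ± 1.72 CPM per kb), Spry2 (34.4 ± 0.561), Fgf7 (4.15 ± 0.155), Spry1 (2.22 ± 0.0820), Spry4 (2.17 ± 0.195), Fgf2 (1.20 ± 0.101), Fgfr3 (0.193 ± 0.0120) and Fgfr2 (0.0369 ± 0.00954; all SD, n = 3). Spry1 and Spry4 did not differ beyond their spread. In the Hdac4-knockdown libraries the order of levels was Fgfr1 (116 ± 4.49 CPM per kb), Fgf7 (34.3 ± 2.75), Spry2 (13.4 ± 0.695), Fgf2 (3.14 ± 0.328), Fgfr2 (1.96 ± 0.105), Spry4 (1.48 ± 0.0301), Spry1 (1.37 ± 0.0922) and Fgfr3 (0.644 ± 0.0941; all SD, n = 3). Fgf7 and Spry2 thus changed places, and Fgfr2 passed both Spry1 and Spry4. Exon lengths include every annotated transcript, so these levels depend on the annotation.

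The other genes of FGF signalling were counted from fixed lists. Of 105 listed genes, 82 were tested, of which 41 were higher, 26 lower and 15 not called, with a median log2 fold change of 0.13 against 0.01 over all genes tested. Over all genes tested, 38.0% were called higher and 37.1% lower, and each list count below is to be read beside these shares. The 41 include Fgf1, Fgf10, Fgf17 and Spry3 and the 26 include Fgf5, whose directions were fixed by the filter on low counts. Of 15 other secreted ligand genes only 4 were tested, and 4 had no count in any library. The 4 tested, Fgf1, Fgf5, Fgf10 and Fgf17, had too few counts for the naming rule and were singled out after their values were seen. Each passed the filter on low counts only through the group where it was high, which fixed its direction, so their counts are given as a description with no test. Fgf5, whose protein ends the growth phase of hair, had 117, 116 and 118 counts in the Control libraries and none in any Hdac4-knockdown library, which makes it at least 40.9-fold lower (against a floor of 3 counts per library). Fgf10, a mesenchymal ligand like Fgf7, had 4, 5 and 7 counts in Control and 20, 31 and 24 in Hdac4-knockdown libraries. Fgf1 had 0, 5 and 3 against 22, 24 and 13 counts, and Fgf17 had 0, 5 and 0 against 11 in each. The only member of the intracellular FGF list that was tested, Fgf11, fell from 7.43 ± 0.681 to 1.71 ± 0.182 CPM (SD, n = 3).

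Co-receptors and heparan sulfate genes shape which ligand reaches which receptor. Of 15 co-receptor and cofactor genes, 11 were tested, 6 higher, 1 lower and 4 not called. Gpc4, which encodes a glypican, had 31, 19 and 30 counts in Control and 749, 739 and 624 in Hdac4-knockdown libraries, a log2 fold change of 4.65 (SE 0.142, edgeR adjusted p = 1.72e-16). Fgfbp3, which encodes an FGF-binding protein, and Sdc2, which encodes a syndecan, also rose (log2 fold changes 2.01 and 1.04). Fgfrl1, which encodes a receptor without a kinase domain, had overlapping groups and was not called (44.6 ± 6.66 and 49.7 ± 2.60 CPM, SD, n = 3, edgeR adjusted p = 0.0758). Among 14 of 18 heparan sulfate enzyme genes tested, 6 were higher, 7 lower and 1 not called. Sulf2, whose enzyme removes sulfate groups from heparan sulfate outside the cell, was counted 689, 718 and 667 times in Control and 10327, 11576 and 10333 times in Hdac4-knockdown libraries (log2 fold change 3.89, SE 0.050, edgeR adjusted p = 3.11e-22). Its relative Sulf1, in the same list but outside the naming rule, was called lower (log2 fold change -0.91, SE 0.0482).

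The genes between receptor and ERK changed little in comparison. All 24 adaptor and cascade genes were tested, 8 were higher, 7 lower and 9 not called, and their log2 fold changes stayed within -0.83 and 0.48. The largest rise was that of Frs2, the docking protein gene of the FGF receptors, from 101 ± 3.34 to 141 ± 7.86 CPM (SD, n = 3; edgeR adjusted p = 2.47e-08).

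The genes listed as feedback genes, other than Spry1, Spry2 and Spry4, moved in both directions. This list was drawn broadly and also holds Rasa1, Nf1 and the Flrt genes. Of the 15 listed, 14 were tested, 9 higher and 5 lower, with a median log2 fold change of 0.35. Dusp4 and Dusp9, which encode phosphatases of the MAP kinases, fell (log2 fold changes -1.83 and -2.83), from 295 ± 2.84 to 82.9 ± 1.62 and from 12.3 ± 0.732 to 1.73 ± 0.362 CPM (SD, n = 3). Dusp6, the ERK phosphatase gene closely tied to FGF signalling, fell only by 0.19 on the log2 scale (SE 0.0429, edgeR adjusted p = 0.000558). Il17rd, which encodes the FGF inhibitor Sef, rose from 11.9 ± 0.918 to 24.1 ± 0.391 CPM (SD, n = 3; log2 fold change 1.02). Flrt3, whose membrane protein binds FGF receptors, rose from 15, 29 and 16 counts to 526, 495 and 507. Spry3, the remaining Sprouty gene, is among these 15 and was singled out after its values were seen. It had 12, 5 and 8 counts in Control and 40, 35 and 25 in Hdac4-knockdown libraries and passed the filter on low counts only through the latter, so no test is given for it.

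ERK target genes were as mixed. Of 17 listed, 3 of them also in the feedback list, 10 were higher, 6 lower and 1 not called, with a median log2 fold change of 0.14. Etv4 and Etv5 encode related ETS factors that FGF signalling is known to induce, and they moved apart. Etv4 was counted 3254, 3388 and 3014 times in Control and 868, 1059 and 927 times in Hdac4-knockdown libraries (log2 fold change -1.83, SE 0.0577, edgeR adjusted p = 3.04e-16). Etv5 was counted 710, 621 and 608 times in Control and 1203, 1251 and 1128 times in Hdac4-knockdown libraries (log2 fold change 0.82, SE 0.0634, edgeR adjusted p = 5.26e-10). Fos rose by a log2 fold change of 1.06, and Phlda1 fell by 1.21 on the log2 scale.

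**Figure D4:**
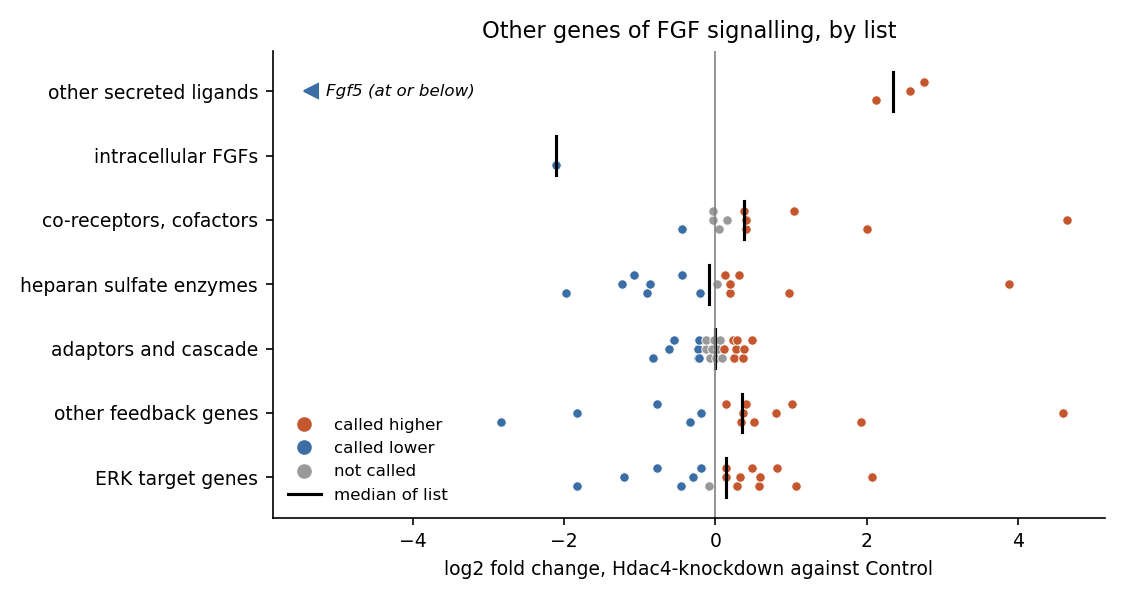
Log2 fold changes, Hdac4-knockdown against Control, of tested genes in 7 lists of FGF signalling (orange, called higher; blue, called lower; grey, not called; black bars, list medians). Adaptor and cascade genes lie within -0.83 and 0.48, feedback and ERK target genes spread to both sides, and the triangle marks Fgf5 at its bound, at least 40.9-fold lower.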

How the data were processed

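Raw counts of 6 libraries, the number of reads per Ensembl gene, were used as deposited by the authors. The submitters' processing notes name FastQC, STAR 2.7.3a, HTSeq 0.12.4 and the mm10 build. The annotation release and the strand setting are not given in the sources used here. Summary lines were left out (no feature 3.17% to 5.07% of reads, ambiguous 5.84% to 6.51%, aligned to several places 3.88% to 4.77%). Reads on bases shared by genes can therefore be missing from both. Symbols and positions came from GENCODE M21 (GRCm38), which held 53706 of 53801 genes, and promoters from RefSeq.

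The main test was run in edgeR 4.0.16 under R 4.3.3 (TMM normalization, filterByExpr, quasi-likelihood F test, Benjamini-Hochberg over 14531 genes). A call needs an adjusted p below 0.05 and a log2 fold change beyond 0.05, the study's stated thresholds. CPM values use TMM library sizes, SE is the log2 fold change over the root of F, and shares use all exon bases. Libraries of a group differed by more than sampling noise (chi-square per degree of freedom 3.38 to 9.15). As a check of the code, the fit was also run on simulated data with few changed genes and a common spread, unlike these libraries. Alternatives used DESeq2 1.42.0 and limma 3.58.1.

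The 10 genes and all lists were chosen with earlier results of these data known. Named genes were Hdac4, the 10, genes overlapping their exons, list genes called with a log2 fold change of at least 1 in size and 100 counts on average (up to 3 per direction), and Dusp6, Etv4, Etv5, Il17rd, Frs2 and Fgfrl1. Other receptor tyrosine kinases were counted apart from the 7 FGF lists.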

Additional observations from a re-analysis of the deposited data

How the results depend on the processing

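For the 8 FGF genes tested, all 111 values from 14 alternatives (normalizations, count filters, DESeq2, limma-voom, the replicate block and leaving out each library) kept their direction and stayed past the threshold. For Fgfr2 this adds nothing, since the filter on low counts fixed its direction. The largest adjusted p among them was 0.000959, for Spry4. With at least 10 counts in every library Fgfr2 was not tested, which left 4 of the genes called higher. Beyond a log2 fold change of 1, 1 Sprouty gene was called lower. Over all genes, thresholds of 0.5 and 1 gave 3579 and 2397 higher and 2879 and 1543 lower calls, and in the FGF lists 18 and 12 higher and 15 and 9 lower. A replicate block in the model gave 5523 higher and 5441 lower calls, and the calls of the FGF genes were 5 higher and 3 lower as before. Same-numbered libraries showed no common deviation (correlations -0.0111, 0.0270 and 0.0166), so no shared effect of the numbers was detected. Weak correlations cannot show that the libraries were not handled in pairs, and the labels do not say.

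With the longest transcript as length, the differences in share (Hdac4-knockdown minus Control) were -2.11 percentage points for Fgfr1 and 1.89 for Fgfr2. With raw counts they were 0.180 for Fgfr3, -9.42 for Spry2, 6.48 for Spry4, -21.5 for Fgf2 and 21.6 for Fgf7. All kept their direction, which for Fgfr2 the filter on low counts had fixed. At 9 to 15 counts in Control, the log2 fold change of Fgfr2 ran from 5.55 to 5.93 when single libraries were left out.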

Other observations

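The FGF receptors were set beside 49 other receptor tyrosine kinase genes, of which 30 were tested. In the Hdac4-knockdown libraries 19 of them were higher, 10 lower and 1 not called, with a median log2 fold change of 0.42. Over all genes tested, 38.0% were called higher and 37.1% lower. Their log2 fold changes ran from -3.02 to 4.49, and the 5.71 of Fgfr2 lay outside this range. This is a description only, since the filter on low counts fixed the direction of Fgfr2. The filter can also have fixed the direction of listed genes with few counts, including the gene at 4.49, which fell short of the naming rule. Ror2 and Ror1, which encode receptors for Wnt ligands, went from 1.43 ± 0.325 to 26.6 ± 0.635 and from 0.859 ± 0.230 to 11.4 ± 0.811 CPM (SD, n = 3). Ephb2, which encodes an ephrin receptor, went from 6.38 ± 0.243 to 77.4 ± 2.14 CPM (SD, n = 3). In the other direction, the ephrin receptor gene Epha4 went from 6.89 ± 0.210 to 0.851 ± 0.186 CPM, Erbb3 from 10.6 ± 0.599 to 1.46 ± 0.0846 CPM and Mertk from 22.8 ± 0.898 to 4.0 ± 0.235 CPM (SD, n = 3 each).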
